A study of Arabidopsis thaliana with 8 samples.

Results

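The genes described here are 39 cyclins, cyclin-dependent kinases (CDKs) and cell cycle inhibitors of Arabidopsis thaliana, out of 27628 genes in the deposited tables. They were chosen by locus code and not by a threshold on measured values, though earlier results of these data were known. There are 9 D-type cyclins, 2 A3 cyclins, the kinase CDKA;1 and 17 mitotic genes (the A1, A2, B1 and B2 cyclins and the B-type CDKs). The others are 8 CDK inhibitors (the 7 KRP genes and SIM) and the 2 CCS52A genes. RNA came from roots of wild type (WT) and of hy5 mutants, named for the light-signalling bZIP factor HY5, all cut from their shoots after 1 week on 0.5x MS medium. The roots were held in liquid medium without cytokinin (Control) or with 0.1 uM of the cytokinin benzyladenine (BA), and each pairing of genotype and medium (WT Control, WT BA, hy5 Control, hy5 BA) had 2 libraries of polyadenylated RNA. The sources used here give neither the hy5 allele nor the length of the BA treatment.

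D-type cyclins are made in response to hormones and sugars, cytokinin among them, and bind CDKA to phosphorylate the retinoblastoma-related protein, which lets E2F factors switch on the genes of DNA replication. A3 cyclins act around S phase. A2 and B-type cyclins with the B-type CDKs, kinases particular to plants, drive the entry into mitosis and are made mainly in late G2 and M phase under MYB3R factors, which read a promoter element with the core AACGG. KRP proteins and SIM bind cyclin-CDK complexes and hold them inactive, and CCS52A proteins activate the anaphase-promoting complex, which destroys mitotic cyclins, so that cells leave the cell cycle and often replicate their DNA without dividing. In roots cytokinin is known to limit the size of the meristem, whereas in shoots and cultured tissue it promotes division.

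HY5 was at 31.0 to 32.4 CPM, counts relative to library size, in the 4 WT libraries and at 0.826 to 1.97 in the 4 hy5 libraries. Libraries held 29928501 to 35289411 estimated counts. In 2 of them, hy5 Control 1 and hy5 BA 2, 21.6 and 23.5% of transcripts had near-whole counts, against 1.34 to 1.53% elsewhere, so results were also computed without both. All 7 root markers, such as PYK10, SHR and CASP1, were above 0 in every library, with a summed level of 4013 to 6118 CPM. The shoot markers STM, FAMA and SPCH did not exceed 0.216 CPM. All 7 shoot markers together summed to 42.4 to 52.2 CPM in WT and 4.74 to 17.4 in hy5, most of it the Rubisco subunit gene RBCS1A. The labels do not tell whether replicate libraries stem from separate cultures, and p-values then measure their spread alone, which may be technical. In whole roots, fewer cells of a type and less RNA per cell cannot be told apart.

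Promoter letters were compared between the classes. The 250 bases before each annotated start were read from the genome (RefSeq, TAIR10.1) and searched on both strands. CAACGG, which holds the MYB3R core, stood in 7 of the 17 mitotic genes and in 6 of the 8 B-type cyclins, in 0 of the 9 D-type cyclins and in 1 of the 8 inhibitors, against 5.28% of the 27443 windows of all protein-coding genes. The core AACGG itself, which CAACGG contains, stood in 9 of the 17 mitotic genes, in 6 of the 8 B-type cyclins, in 1 of the 9 D-type cyclins and in 4 of the 8 inhibitors, KRP1 among them, against 20.6% of all, so the mitotic genes and the inhibitors held it in like shares. ACGT, the core that bZIP factors such as HY5 read, stood in 15 of the 39 windows and in 44.1% of all. CACGTG, which contains ACGT, stood in 2 of the 39, those of KRP1 and CYCB2;3, and in 6.49% of all. A match is a string of letters and not a site shown to be bound. Both B1 cyclin windows below are shown for their pairs of CAACGG, in capitals (CCGTTG on the other strand), at chr4:17624309-17624558 and chr5:1861704-1861953, both read from the minus strand.
CYCB1;1: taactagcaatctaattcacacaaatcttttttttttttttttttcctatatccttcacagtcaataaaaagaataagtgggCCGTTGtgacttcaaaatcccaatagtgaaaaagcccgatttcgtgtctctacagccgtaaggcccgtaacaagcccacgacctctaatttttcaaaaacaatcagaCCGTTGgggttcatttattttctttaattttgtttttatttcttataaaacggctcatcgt
CYCB1;2: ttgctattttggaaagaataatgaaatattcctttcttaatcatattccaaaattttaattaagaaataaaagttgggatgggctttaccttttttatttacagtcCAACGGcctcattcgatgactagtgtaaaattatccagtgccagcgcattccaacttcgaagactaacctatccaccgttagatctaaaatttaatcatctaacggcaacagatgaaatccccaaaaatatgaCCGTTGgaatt

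The windows of KRP1 and KRP2, the members with the largest falls in the hy5 effect averaged over media below, are shown with ACGT in capitals. They lie at chr2:9978091-9978340 on the minus strand and chr3:18800056-18800305 on the plus strand. No other annotated gene reaches into these 4 windows. ACGT stood 1 time in each of KRP1 and KRP2. Members called higher in hy5 averaged over media also held it, 3 times in CYCD1;1 and 2 times in CDKB1;2 and KRP6. CDKB2;1 and CDKB2;2, called higher too, each held it 1 time. It was absent from CYCD3;2, CYCA2;4 and CYCB2;1, called higher, and from CYCD3;1, called lower.
KRP1: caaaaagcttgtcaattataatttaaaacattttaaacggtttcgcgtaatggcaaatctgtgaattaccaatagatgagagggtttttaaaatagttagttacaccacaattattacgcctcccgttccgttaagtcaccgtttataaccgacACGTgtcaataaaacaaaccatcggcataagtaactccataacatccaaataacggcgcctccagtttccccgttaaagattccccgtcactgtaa
KRP2: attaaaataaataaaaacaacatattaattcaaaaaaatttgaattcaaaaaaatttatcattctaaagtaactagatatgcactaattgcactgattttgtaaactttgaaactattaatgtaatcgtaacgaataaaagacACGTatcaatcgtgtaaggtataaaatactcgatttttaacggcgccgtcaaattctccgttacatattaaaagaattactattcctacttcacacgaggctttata

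Levels between genes are given as TPM, the deposited scale per transcript length, and levels between libraries as CPM. CDKA;1, the kinase that serves most of the cycle, had the highest TPM of the members, at 49.7 to 55.6 over the 8 libraries, apart from every other member. KRP6 (25.6 to 37.1 TPM), CDKB2;1 (27.1 to 33.9) and CYCD3;2 (20.23 to 33.8) came next, with ranges that overlap. The lowest TPM were those of CYCA2;1 (0.708 to 1.098), CYCD4;2 (1.18 to 1.97) and CYCA3;1 (1.20 to 2.44). Estimated counts per library reached from 27 for the least to 2300 for the most abundant member, and all 39 passed the filter on low counts. SIM is a short transcript, for which TPM depends strongly on the effective length.

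**Figure D1:**
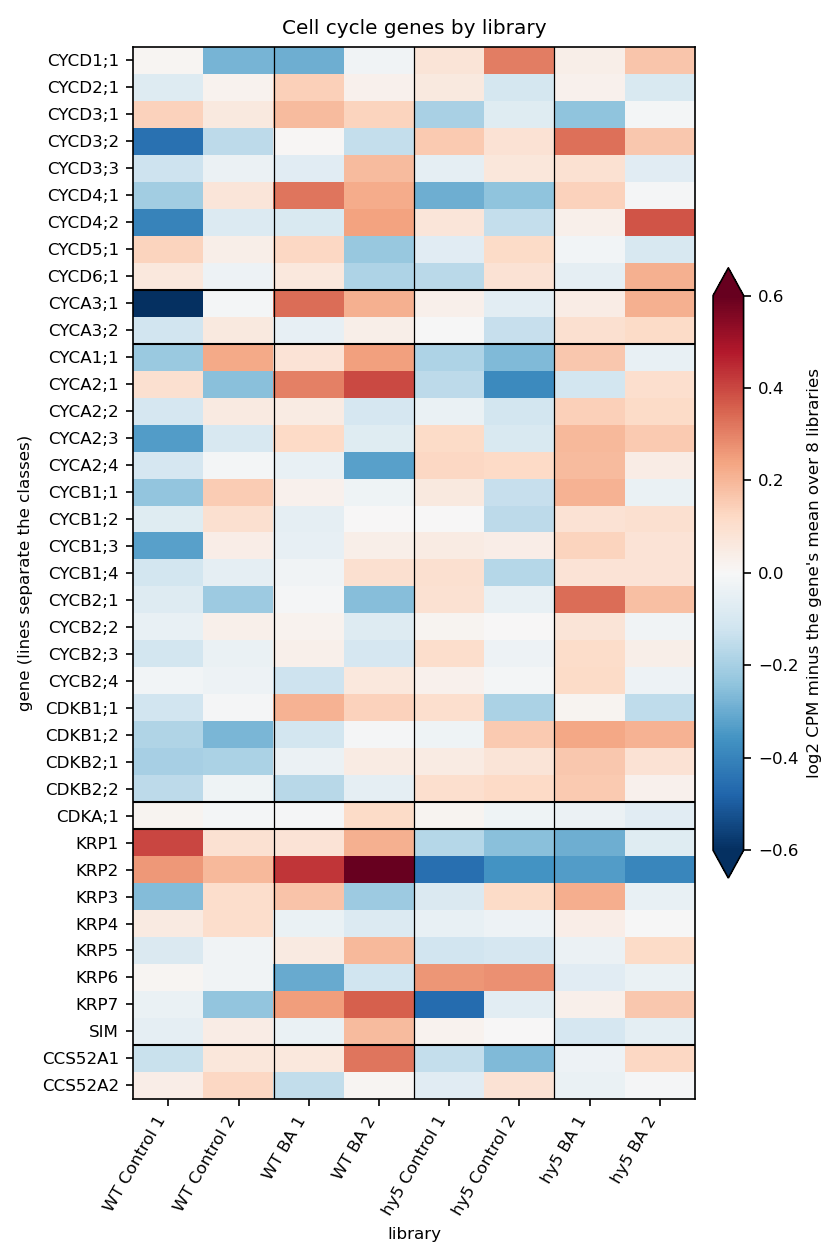
Log2 CPM of the 39 genes in each of the 8 libraries, minus the gene's own mean over the libraries. Rows are genes in the order D-type, A3, mitotic, CDKA;1, inhibitors and CCS52A, and the colour scale ends at 0.6 in either direction. KRP1 and KRP2 are red in the WT columns and blue in the hy5 columns, and the row of CDKA;1 is nearly white.

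Folds between groups were small. In 1 model over all 8 libraries (edgeR's quasi-likelihood test, p-values adjusted over 22682 genes, called at an adjusted p under 0.05), 14 of the 39 genes were called in at least 1 of 7 contrasts and 25 in none. The hy5 genotype, averaged over both media, gave 8 higher and 3 lower members, or 28.2% of the 39, whereas 34.6% of all genes tested were called, 17.8% higher and 16.8% lower. In control medium alone 4 were higher and 2 lower, with 25.1% of all genes called (13.7% higher, 11.4% lower), and with BA 1 was higher and 2 lower, with 23.5% of all called (11.0% higher, 12.4% lower). BA in WT gave no call, against 8.2% of all genes (3.88% higher, 4.33% lower), and DESeq2 also called 0. An unadjusted p under 0.05 was found there for 10 of the 39 members and for 5464 of the 22682 genes, a like share. BA in hy5 gave 1 call, a fall, where 11.1% of all genes were called (3.11% higher, 8.01% lower). BA averaged over the genotypes gave 3 higher and 1 lower members, where 16.4% of all were called (6.46% higher, 9.98% lower). With higher and lower calls summed, the members' share was thus below that of all genes in each of these contrasts. For higher calls alone it was above that of all genes in the averaged hy5 effect (8 of 39 against 17.8%). The same held for BA averaged over the genotypes (3 of 39 against 6.46%). Whether the shares differ was not tested. The 25 members called in no contrast had averaged hy5 effects of -0.28 (CYCA2;1) to 0.19 (CYCA2;3) and averaged BA responses of -0.10 (CYCD5;1) to 0.38 (CYCA3;1) on the log2 scale. These contrasts share libraries, so their values for a gene are not independent of each other.

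Precision was high enough to bound most members. For BA in WT the 95% interval of the fold lay within 1.5-fold in either direction for 34 of the 39 members, against 71.9% of all genes, and for BA in hy5 likewise for 34. For the hy5 effect averaged over media it did so for 36, against 72.7% of all. The median size of the members' log2 folds was 0.11 for the averaged hy5 effect and 0.13 for BA in WT, where it was 0.15 and 0.14 over all genes. With no scaling beyond library size the median of all genes moved by 0.101 (log2) for BA in hy5 and by -0.087 for genotype in control medium. The calls of all genes then split into 1712 higher and 1285 lower for BA in hy5 instead of 706 and 1817, into 2303 and 4263 for genotype in control medium instead of 3103 and 2593, into 2219 and 1896 for BA averaged instead of 1465 and 2263, and into 22 and 33 for the genotype by BA interaction instead of 11 and 99. No called fold of a member changed its direction under that scaling, but some folds near 0 did, among them the averaged hy5 effects of CYCB1;2 and CYCD3;3, the latter at -0.02 instead of 0.02.

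Gene positions below are on TAIR10.1. Among the D-type cyclins, hy5 roots held more of CYCD3;2 and CYCD1;1 and less of CYCD3;1, and the other 6 members were not called for genotype. The CYCD3 genes are the D-type cyclins best known as targets of cytokinin. CYCD3;2 (AT5G67260, chr5:26836139-26839597, plus strand) had CPM values of 24.7 and 30.2 (WT Control), 33.8 and 30.5 (WT BA), 37.5 and 35.7 (hy5 Control) and 42.4 and 37.7 (hy5 BA). All hy5 libraries were above all WT libraries, and the averaged hy5 effect was 0.37 ± 0.07 (log2 ± SE, adjusted p = 0.000464). It was called in control medium, at 0.42 ± 0.10 (adjusted p = 0.00402), and with BA, at 0.32 ± 0.09 (adjusted p = 0.0230). The call in control medium was lost without 1 library, with adjusted p of 0.0505 (WT Control 1 left out) and 0.0578 (hy5 Control 1 left out). The call with BA was likewise lost, with 0.183 (WT BA 2 left out) and 0.232 (hy5 BA 1 left out). The averaged call was kept in all 15 alternatives.

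Its paralog went the other way. CYCD3;1 (AT4G34160, chr4:16357421-16359565, plus strand) had CPM values of 37.0 and 35.05 (WT Control), 38.4 and 37.0 (WT BA), 29.4 and 32.1 (hy5 Control) and 28.5 and 33.4 (hy5 BA). Every hy5 library was below every WT library, and the averaged hy5 effect was -0.26 ± 0.06 (adjusted p = 0.00235), called in all 15 alternatives. With BA it was -0.29 ± 0.08 (adjusted p = 0.0185), a call lost with adjusted p of 0.0892 (WT BA 1 left out) and 0.194 (hy5 BA 1 left out). In control medium the value was -0.23 ± 0.08 (adjusted p = 0.0521). The remaining member of the subfamily, CYCD3;3, lay at 17.2 to 21.3 CPM over all libraries, with an averaged hy5 effect of 0.02 ± 0.07 and a 95% interval of -0.13 to 0.16. Both called genes overlap another annotated gene, for CYCD3;1 one on the same strand, and the strand setting of the counts is not given, so reads of the neighbour may be counted with either.

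CYCD1;1 (AT1G70210, chr1:26439556-26443007, plus strand) had CPM values of 33.4 and 27.3 (WT Control), 27.0 and 32.6 (WT BA), 34.9 and 41.0 (hy5 Control) and 34.0 and 37.2 (hy5 BA). Here too the genotypes did not overlap, though the lowest hy5 value stood close to the highest WT value. CYCD1;1 also overlaps another annotated gene, on the other strand. The averaged hy5 effect was 0.29 ± 0.08 (adjusted p = 0.0188), and adjusted p rose to 0.0540 (WT Control 2 left out), 0.0648 (WT BA 1 left out), 0.0669 (hy5 Control 2 left out) and 0.0779 (hy5 BA 2 left out). CYCD4;1 (AT5G65420, chr5:26141470-26144020, minus strand), a cyclin that acts in lateral root density and stomatal lineage divisions, was called for BA instead, with CPM values of 7.17 and 8.72 (WT Control), 10.4 and 9.69 (WT BA), 6.76 and 7.01 (hy5 Control) and 9.13 and 8.25 (hy5 BA). Within each genotype both BA libraries were above both Control libraries. The BA response averaged over genotypes was 0.34 ± 0.08 (adjusted p = 0.0113), with 0.34 ± 0.12 (adjusted p = 0.0945) for WT alone and 0.34 ± 0.12 (adjusted p = 0.0921) for hy5 alone. This call was lost with adjusted p of 0.0565 (WT Control 1 left out), 0.0528 (hy5 Control 1 left out), 0.0738 (hy5 BA 1 left out), 0.0502 (with DESeq2) and 0.0650 (hy5 Control 1 and hy5 BA 2 both left out).

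For the best known cytokinin targets of the class the BA responses were small. CYCD3;1 had a BA response of 0.06 ± 0.08 in WT, with a 95% interval of -0.11 to 0.24, and of 0.01 ± 0.08 in hy5, with -0.17 to 0.19. CYCD3;2 had 0.23 ± 0.10 in WT (adjusted p = 0.160), where both BA libraries were above both Control libraries, and 0.13 ± 0.09 in hy5 (adjusted p = 0.444). Which members were called for BA in WT depended on the library left out. Without WT Control 2 these were CYCD3;2, CYCD4;1 and CYCA3;1, all higher, and without WT BA 1 only KRP2. Over all genes, more were called for BA in WT without WT Control 2 than in the main fit, and fewer without WT BA 1. Each of these runs leaves 1 library in a group.

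**Figure D2:**
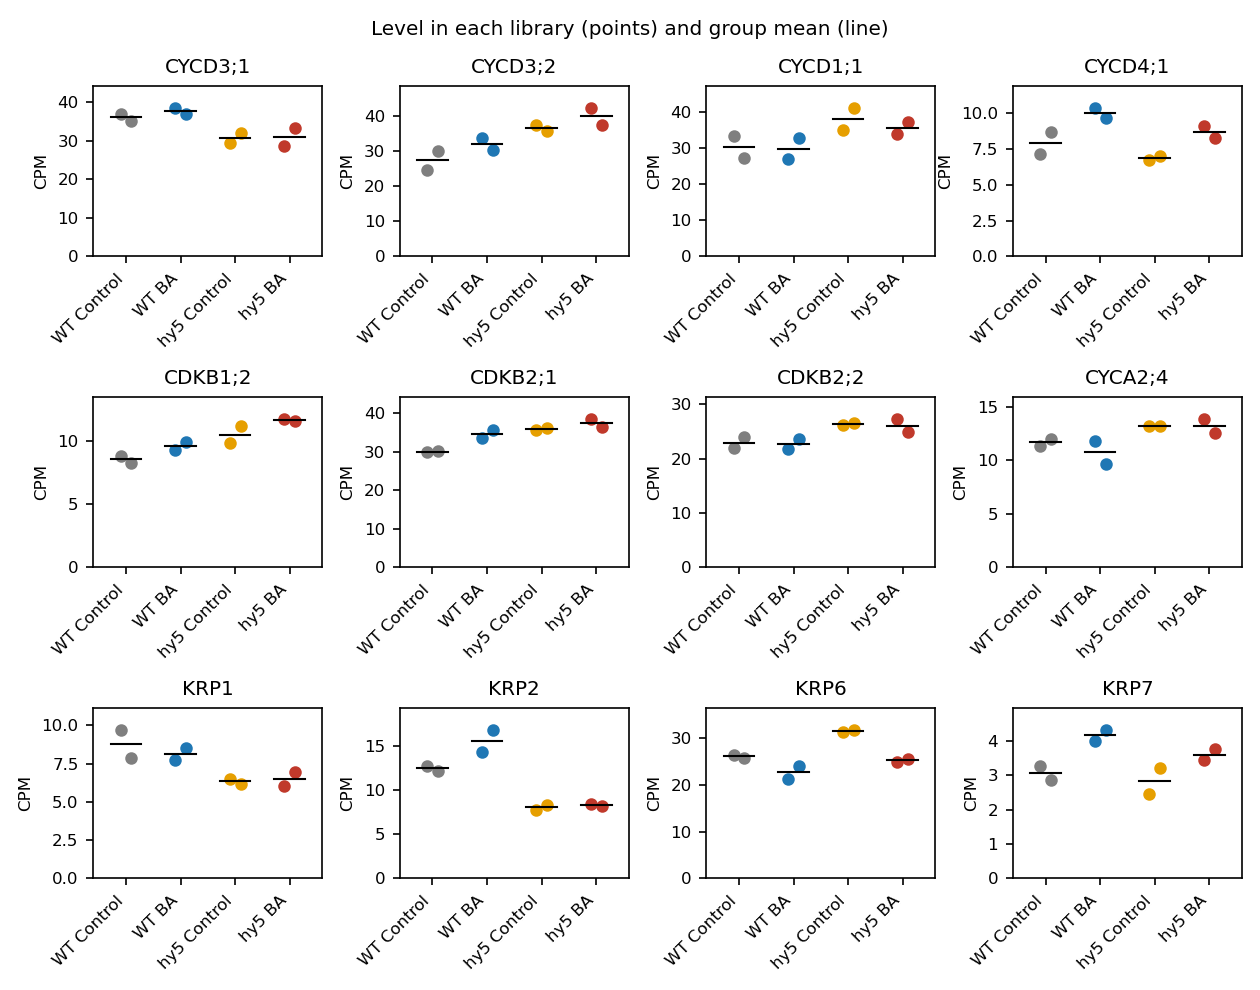
CPM in each library (points, 2 per group) and the group mean (line) for 12 called members, with each axis starting at 0. CYCD3;2, CYCD1;1, CDKB2;2 and CYCA2;4 have all 4 hy5 libraries above all 4 WT libraries, CYCD3;1, KRP1 and KRP2 have them all below, and KRP6 is highest in hy5 Control.

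The A3 cyclins and CDKA;1 gave no call. CYCA3;2 (AT1G47210, chr1:17300691-17302914, plus strand), the more abundant A3 cyclin, had CPM values of 27.4 and 30.9 (WT Control), 28.7 and 30.4 (WT BA), 29.6 and 26.9 (hy5 Control) and 31.7 and 32.1 (hy5 BA). In control medium its hy5 and WT libraries overlapped, whereas both hy5 BA libraries were above every WT and every hy5 Control library. The averaged hy5 effect was 0.03 ± 0.06, with a 95% interval of -0.09 to 0.15. CYCA3;1 (AT5G43080, chr5:17292952-17295024, plus strand) was among the members with the lowest TPM, with CPM values of 1.43 and 2.41 (WT Control), 3.06 and 2.81 (WT BA), 2.48 and 2.33 (hy5 Control) and 2.51 and 2.81 (hy5 BA). Its BA response in WT was 0.62 ± 0.21 (adjusted p = 0.0880), with WT Control 1 the lowest of the 8 libraries, and adjusted p was 0.0103 without WT Control 2. CDKA;1 (AT3G48750, chr3:18071454-18074641, plus strand) had CPM values of 67.2 and 65.9 (WT Control), 66.2 and 71.9 (WT BA), 67.1 and 65.2 (hy5 Control) and 64.8 and 63.4 (hy5 BA). Its averaged hy5 effect was -0.06 ± 0.05 and its averaged BA response 0.00 ± 0.05, with 95% intervals of -0.16 to 0.04 and -0.10 to 0.10.

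Among the 17 mitotic genes, 5 were higher in hy5 averaged over media and none lower, or 29.4% called against 34.6% of all genes (17.8% higher): 3 of the 4 B-type CDKs, 1 of the 4 A2 cyclins and 1 of the 4 B2 cyclins. None of the 4 B1 cyclins was called, and no mitotic gene was called for BA in any contrast. The median of the averaged hy5 effect over the class was 0.05, with 14 of 17 above 0, against 0.00 over all genes, and with library size only it was 0.02, with 13 of 17 above 0. In control medium the class median of 0.05 became -0.03 with library size only. With BA it was 0.11, with 14 of 17 above 0. The class median of the BA response averaged over genotypes was 0.10, with 15 of 17 above 0, against 0.02 over all genes. With library size only it was 0.13, against 0.05 over all genes. For BA in WT the class median was 0.04 (11 of 17 above 0) and for BA in hy5 0.11 (14 of 17 above 0).

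CDKB2;1 (AT1G76540, chr1:28720328-28722550, minus strand), a kinase made from G2 to M phase, had CPM values of 29.9 and 30.04 (WT Control), 33.5 and 35.5 (WT BA), 35.5 and 36.2 (hy5 Control) and 38.4 and 36.5 (hy5 BA). The hy5 effect was called in control medium, where both hy5 libraries were above both WT libraries, at 0.26 ± 0.07 (adjusted p = 0.0118), and averaged over media, at 0.19 ± 0.05 (adjusted p = 0.00660). The call in control medium was lost with adjusted p of 0.05001 (WT Control 1 left out), 0.0659 (hy5 Control 1 left out), 0.103 (hy5 Control 2 left out), 0.0826 (with library size only) and 0.0745 (hy5 Control 1 and hy5 BA 2 both left out), and the averaged call was kept in all 15 alternatives. Its close paralog CDKB2;2 (AT1G20930, chr1:7292389-7294746, minus strand) had CPM values of 21.9 and 24.0 (WT Control), 21.7 and 23.5 (WT BA), 26.2 and 26.6 (hy5 Control) and 27.2 and 24.9 (hy5 BA). All hy5 libraries were above all WT libraries, with an averaged effect of 0.20 ± 0.06 (adjusted p = 0.0115) and adjusted p of 0.0544 (WT BA 1 left out), 0.0524 (hy5 Control 2 left out) and 0.0764 (hy5 BA 1 left out).

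CDKB1;2 (AT2G38620, chr2:16152473-16154086, plus strand) had CPM values of 8.83 and 8.28 (WT Control), 9.27 and 9.98 (WT BA), 9.85 and 11.2 (hy5 Control) and 11.7 and 11.6 (hy5 BA). Its averaged hy5 effect of 0.29 ± 0.07 (adjusted p = 0.00582) was called in all 15 alternatives. In control medium it was 0.30 ± 0.10 (adjusted p = 0.0492), next to the threshold, and in 14 of 15 alternatives that call was lost, every run without 1 library included (0.0529 without WT BA 2 up to 0.364 without hy5 Control 2). CDKB1;1 was not called, at -0.11 ± 0.07 with a 95% interval of -0.26 to 0.04. All 4 B-type CDKs overlap another annotated gene and the sums of their estimated counts were not within 0.01 of whole numbers.

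CYCA2;4 (AT1G80370, chr1:30213705-30217102, plus strand) had CPM values of 11.3 and 12.02 (WT Control), 11.8 and 9.69 (WT BA), 13.2 and 13.2 (hy5 Control) and 13.8 and 12.5 (hy5 BA). The genotypes did not overlap, and the averaged hy5 effect was 0.24 ± 0.07 (adjusted p = 0.0199), with adjusted p of 0.0546 (WT Control 1 left out), 0.0995 (WT BA 2 left out), 0.0683 (hy5 Control 1 left out), 0.0661 (hy5 Control 2 left out), 0.109 (hy5 BA 1 left out), 0.0824 (with DESeq2) and 0.0592 (hy5 Control 1 and hy5 BA 2 both left out). CYCB2;1 (AT2G17620, chr2:7664055-7666522, plus strand), the least abundant B-type cyclin, had CPM values of 3.98 and 3.62 (WT Control), 4.18 and 3.52 (WT BA), 4.47 and 4.07 (hy5 Control) and 5.30 and 4.76 (hy5 BA). Its averaged effect was 0.28 ± 0.10 (adjusted p = 0.0480), lost in 12 of 15 alternatives, library size only and DESeq2 included, and in 7 of the 8 runs without 1 library, with adjusted p of 0.0529 (WT Control 1 left out), 0.131 (WT Control 2 left out), 0.152 (WT BA 2 left out), 0.173 (hy5 Control 1 left out), 0.0730 (hy5 Control 2 left out), 0.168 (hy5 BA 1 left out) and 0.0509 (hy5 BA 2 left out). The B1 cyclins had small folds: CYCB1;1 (AT4G37490, chr4:17621886-17624308, minus strand), the usual reporter of G2 and M phase, had CPM values of 8.31 and 10.9 (WT Control), 9.97 and 9.63 (WT BA), 10.2 and 8.91 (hy5 Control) and 11.3 and 9.51 (hy5 BA), which overlap between all groups. The averaged hy5 effects of the 4 B1 cyclins lay between 0.01 and 0.15 (CYCB1;2 was at -0.02 with library size only), and for each the 95% interval stayed within 1.5-fold.

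Markers of the root tip also differed between the genotypes, more so in control medium than with BA. The 8 meristem and cap markers summed to 81.8 to 84.0 CPM in WT Control, 81.4 to 90.9 in WT BA, 110 to 114 in hy5 Control and 91.4 to 101 in hy5 BA, with none at 0. Most of each sum was PLT3, at 55.8 and 54.1 CPM (WT Control), 61.4 and 52.5 (WT BA), 76.6 and 77.2 (hy5 Control) and 65.8 and 59.2 (hy5 BA). In control medium 4 of the 8 were called higher in hy5 (PLT2, PLT3, BBM and SMB) and 0 lower, where 13.7% of all genes were called higher, and averaged over media 3 were higher, where 17.8% were. With BA 1 of the 8 was called higher and 0 lower, where 11.0% of all genes were called higher. The median hy5 effect of these 8 was 0.34 in control medium and 0.14 with BA, whereas that of the mitotic genes was 0.05 and 0.11. FEZ, a root cap factor of the same list, was not called and lay at 1.19 to 1.55 CPM in the hy5 libraries and at 1.59 to 1.89 in the WT libraries, without overlap. The 4 markers of lateral root initiation summed to 14.7 to 15.2 CPM in WT Control, 11.5 to 11.7 in WT BA, 22.8 to 23.1 in hy5 Control and 11.8 to 12.7 in hy5 BA, and in control medium LBD16 and LBD29 were called higher in hy5. With BA 1 of the 4 was called higher in hy5 and 0 lower, and the median of their hy5 effects was -0.19. The part of these markers' cells in the hy5 effects on cyclins, kinases and inhibitors was not tested.

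Of the 8 inhibitors, KRP2 and KRP1 were lower in hy5 averaged over media and KRP6 was higher, while KRP3, KRP4, KRP5, KRP7 and SIM were not called for genotype. The class median was -0.07. KRP2 had the largest averaged hy5 effect of all 39 members. KRP2 (AT3G50630, chr3:18800306-18801595, plus strand), an inhibitor known to restrain lateral root initiation and to be lowered by auxin, had CPM values of 12.7 and 12.2 (WT Control), 14.3 and 16.8 (WT BA), 7.77 and 8.29 (hy5 Control) and 8.43 and 8.12 (hy5 BA). Every hy5 library was below every WT library. The hy5 effect was -0.63 ± 0.11 in control medium (adjusted p = 0.000259), -0.91 ± 0.10 with BA (adjusted p = 6.70e-06) and -0.77 ± 0.07 averaged (adjusted p = 4.27e-07), each called in all 15 alternatives. In WT both BA libraries were above both Control libraries, with a BA response of 0.32 ± 0.10 (adjusted p = 0.0587), and in hy5 it was 0.04 ± 0.11. The difference between these responses was -0.28 ± 0.15 (adjusted p = 0.426), so a different response in hy5 was not shown.

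KRP1 (AT2G23430, chr2:9976590-9978090, minus strand), an inhibitor of G1 and G2 progress also named ICK1, had CPM values of 9.68 and 7.83 (WT Control), 7.76 and 8.51 (WT BA), 6.52 and 6.18 (hy5 Control) and 6.002 and 6.98 (hy5 BA). Again the genotypes did not overlap. The averaged hy5 effect was -0.40 ± 0.09 (adjusted p = 0.00292), called in all 15 alternatives. In control medium it was -0.47 ± 0.13 (adjusted p = 0.0143), with adjusted p of 0.186 (WT Control 1 left out), 0.0866 (hy5 Control 2 left out), 0.0593 (with DESeq2) and 0.0624 (hy5 Control 1 and hy5 BA 2 both left out), and with BA -0.33 ± 0.13 (adjusted p = 0.0844).

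KRP6 (AT3G19150, chr3:6616330-6617951, minus strand) had the opposite pattern. It is the most abundant inhibitor by TPM, with CPM values of 26.4 and 25.8 (WT Control), 21.2 and 24.0 (WT BA), 31.4 and 31.7 (hy5 Control) and 24.9 and 25.5 (hy5 BA). It was highest in both hy5 Control libraries, and in each genotype both BA libraries were below both Control libraries. The hy5 effect was 0.27 ± 0.08 in control medium (adjusted p = 0.0138) and 0.21 ± 0.05 averaged (adjusted p = 0.00563). The BA response in hy5 was -0.32 ± 0.08 (adjusted p = 0.0104), which made it the only member called for BA within 1 genotype, and the averaged BA response of -0.26 ± 0.05 (adjusted p = 0.00299) was called in all 15 alternatives. The hy5 call in control medium was lost with adjusted p of 0.0663 (WT Control 2 left out), 0.0791 (hy5 Control 1 left out), 0.0927 (hy5 Control 2 left out), 0.0793 (with library size only) and 0.0933 (hy5 Control 1 and hy5 BA 2 both left out). The BA call in hy5 was lost with 0.0645 (hy5 Control 1 left out), 0.0839 (hy5 Control 2 left out), 0.0555 (hy5 BA 1 left out), 0.0667 (hy5 BA 2 left out) and 0.181 (hy5 Control 1 and hy5 BA 2 both left out). The averaged hy5 call was lost without hy5 Control 1 and hy5 BA 2 together, at 0.0576.

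KRP7 (AT1G49620, chr1:18365336-18366744, minus strand), with CPM values of 3.28 and 2.85 (WT Control), 4.01 and 4.32 (WT BA), 2.45 and 3.23 (hy5 Control) and 3.44 and 3.77 (hy5 BA), was higher with BA. In each genotype both BA libraries stood above both Control libraries, and the averaged BA response was 0.39 ± 0.12 (adjusted p = 0.0310). Adjusted p was 0.0828 (WT Control 2 left out), 0.0926 (WT BA 2 left out), 0.154 (hy5 Control 1 left out), 0.0603 (hy5 BA 1 left out), 0.0965 (hy5 BA 2 left out), 0.160 (with DESeq2) and 0.316 (hy5 Control 1 and hy5 BA 2 both left out). KRP1, KRP2, KRP6 and KRP7 overlap no other annotated gene, and their summed counts were within 0.01 of whole numbers in every library. SIM, which sets endoreplication in leaf hairs, lay at 11.02 to 13.5 CPM with an averaged hy5 effect of -0.07 ± 0.07.

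Of the CCS52A activators, CCS52A1 was higher with BA and CCS52A2, which maintains the root stem cell niche, was not called for any contrast. CCS52A1 (AT4G22910, chr4:12012408-12016012, plus strand) had CPM values of 13.5 and 15.5 (WT Control), 15.5 and 18.5 (WT BA), 13.4 and 12.3 (hy5 Control) and 14.5 and 16.1 (hy5 BA). WT libraries overlapped only between WT Control 2 and WT BA 1, and in hy5 both BA libraries were above both Control libraries. The averaged BA response was 0.24 ± 0.08 (adjusted p = 0.0402). The call was lost with adjusted p of 0.144 (WT Control 1 left out), 0.191 (WT BA 2 left out), 0.0674 (hy5 Control 1 left out), 0.176 (hy5 Control 2 left out), 0.0554 (hy5 BA 1 left out), 0.146 (hy5 BA 2 left out), 0.119 (with DESeq2) and 0.190 (hy5 Control 1 and hy5 BA 2 both left out).

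**Figure D3:**
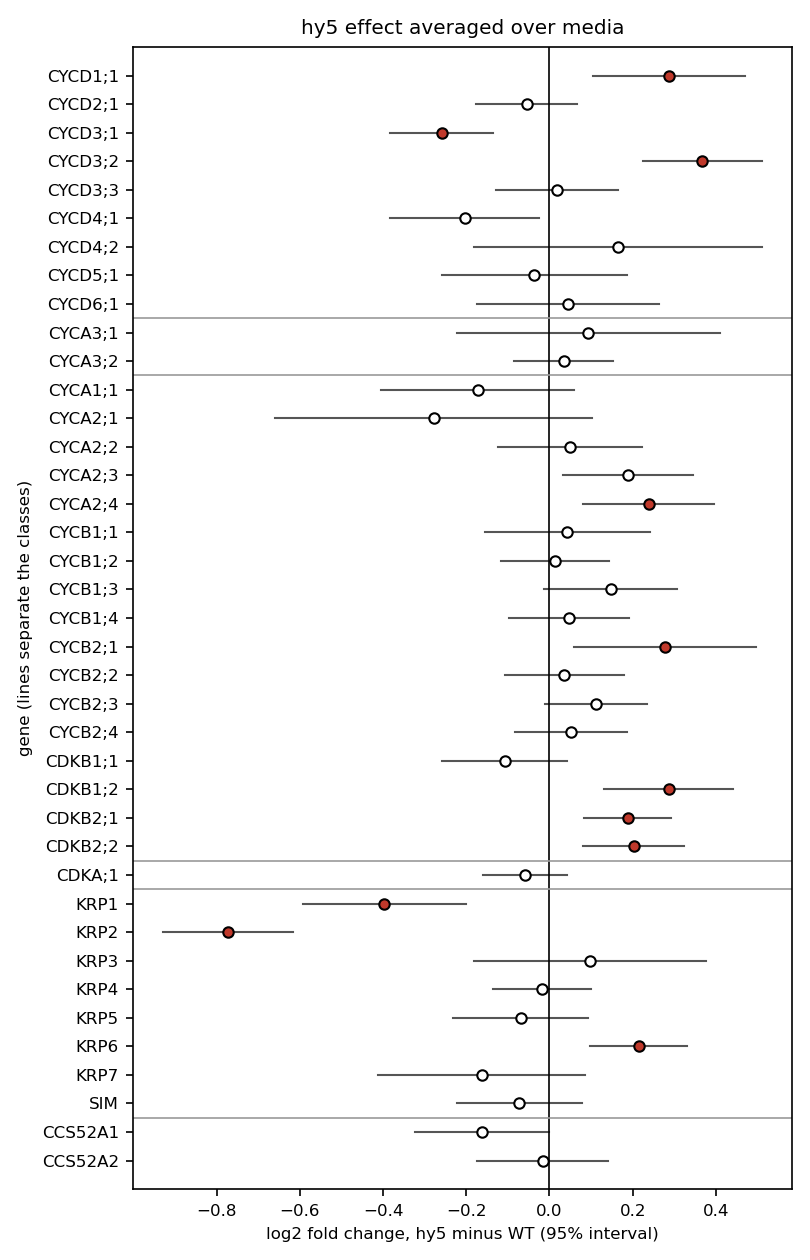
Log2 fold of hy5 against WT averaged over media for each of the 39 genes (point) with its 95% interval (line), where filled points were called and lines separate the classes. KRP2 at -0.77 stands apart from the rest, and the 3 called B-type CDKs lie between 0.19 and 0.29.

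**Figure D4:**
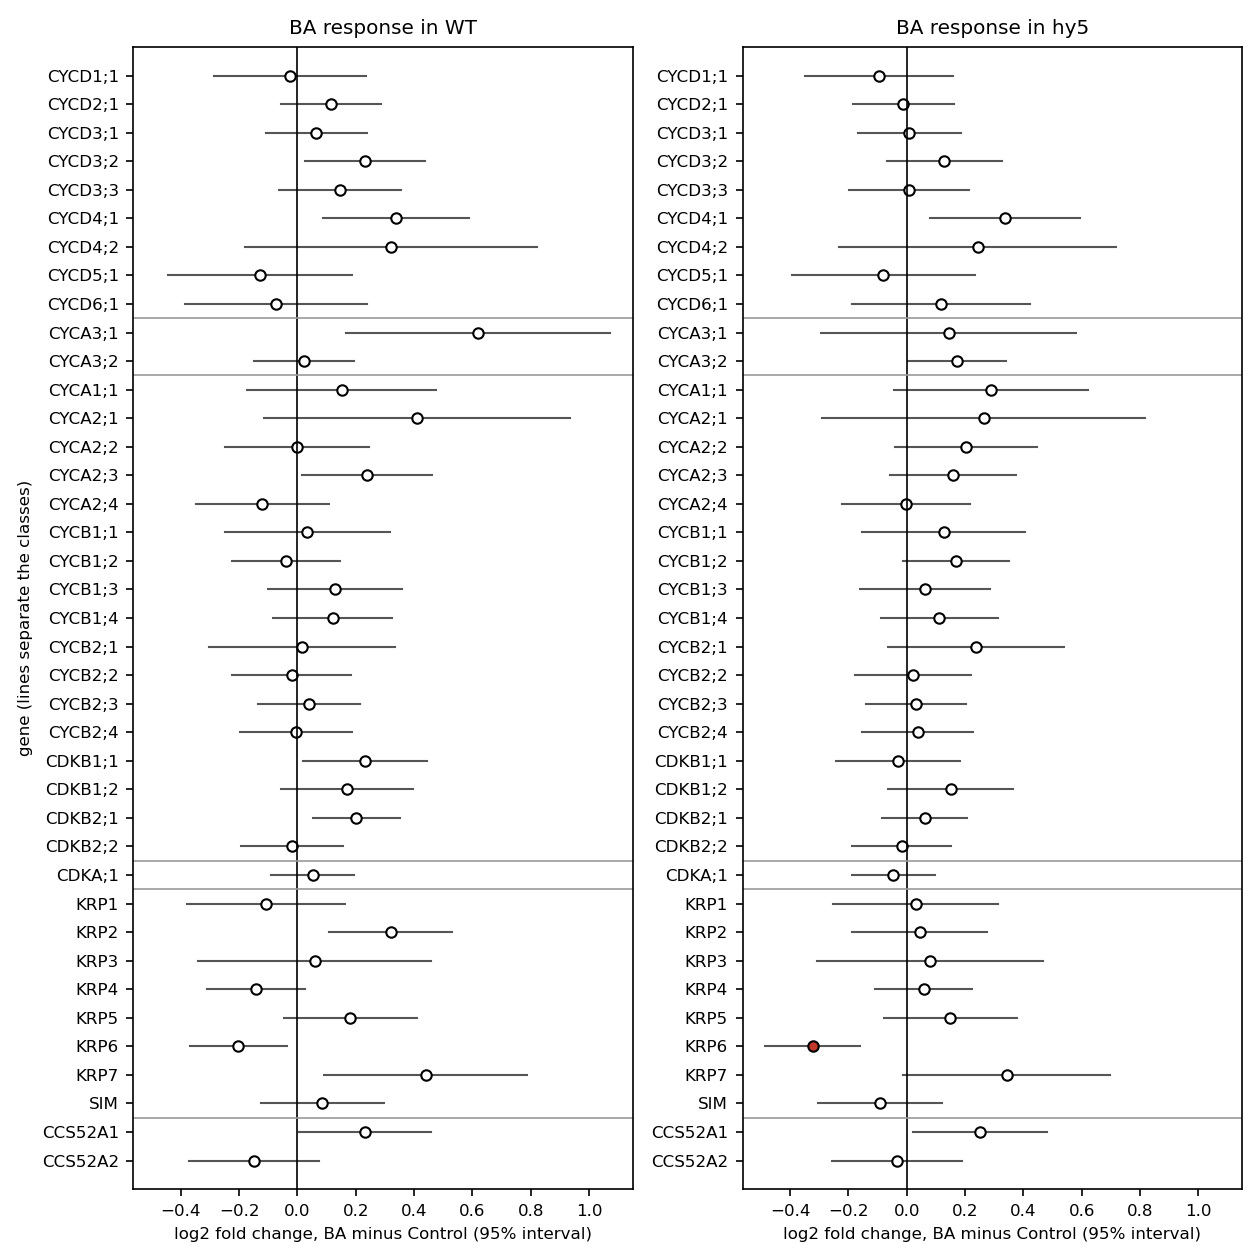
Log2 fold of BA against Control with its 95% interval for each gene in WT (left) and in hy5 (right), where filled points were called. KRP6 in hy5, at -0.32, is the only filled point.

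Counted over libraries rather than by the model, 7 members had non-overlapping CPM ranges between the 4 hy5 and the 4 WT libraries, 4 higher and 3 lower in hy5, or 17.9% of the 39 against 25.5% of all genes tested (12.3% higher, 13.2% lower). For BA in WT 16 members, 13 higher and 3 lower, did not overlap, or 41.0% against 52.4% of all genes (27.2% higher, 25.3% lower). For BA in hy5 it was 20, 17 higher and 3 lower, or 51.3% against 55.9% (28.6% higher, 27.4% lower). No member was called for the genotype by BA interaction, against 0.485% of all genes (0.0485% higher, 0.436% lower), and DESeq2 called 0. An unadjusted p under 0.05 was found there for 0 members and for 3112 of the 22682 genes. The 95% interval of the interaction lay within 1.5-fold for 31 of the 39.

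Transcript forms gave little beyond the gene sums. Of the members, 19 have 1 transcript in the tables. The first form of KRP2 made up 95.9% of the gene's TPM. KRP6 had 3 forms at 64.8, 24.7 and 10.6% of its TPM. The share of reads that Salmon gives to each form is an estimate.

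A further 46 cell cycle genes, covering E2F and retinoblastoma-related genes, replication, mitosis and cytokinesis, CDK activation and other inhibitors, were counted in the same way from a list of their own. In hy5 averaged over media 7 were higher and 2 lower, or 19.6% of the 46, against 34.6% of all genes. For BA averaged over genotypes SMR1 and TSO2, a ribonucleotide reductase gene, were higher and SMR4 was lower, 3 of the 46 against 16.4% of all genes. TSO2 kept that call in 7 and SMR4 in 6 of the 15 alternatives, both lost it with DESeq2, and SMR4 also with library size only. SMR1, a CDK inhibitor of the SIM family also known as LGO, was called higher with BA in both genotypes, with CPM values of 2.22 and 2.47 (WT Control), 3.78 and 4.41 (WT BA), 2.94 and 2.48 (hy5 Control) and 4.62 and 3.95 (hy5 BA). Every BA library was above every Control library, and its averaged BA response was 0.73 ± 0.12 (adjusted p = 0.000320), called in all 15 alternatives. In WT alone that response was 0.80 ± 0.17 and in hy5 alone 0.66 ± 0.16. The WT call was lost without WT Control 1 or WT BA 2, with an adjusted p of at most 0.0824, and the hy5 call with DESeq2, without hy5 Control 2, without hy5 BA 1 and with both hy5 Control 1 and hy5 BA 2 left out, with at most 0.168 over all alternatives.

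SMR5, a SIM-family inhibitor known to respond to DNA damage and oxidative stress, was lower in hy5, with CPM values of 2.63 and 1.40 (WT Control), 1.78 and 2.46 (WT BA), 0.765 and 1.09 (hy5 Control) and 0.704 and 0.680 (hy5 BA). Every hy5 library was below every WT library, with an averaged hy5 effect of -1.37 ± 0.22 (adjusted p = 0.000199). SMR5, SMR1, TSO2 and CCS52B each overlap other annotated genes, in the case of TSO2 on the same strand. Reads of such neighbours may be counted with them, as the strand setting is not given. The locus AT1G08180, counted among the other inhibitors, had CPM values of 4.48 and 4.38 (WT Control), 3.49 and 4.57 (WT BA), 2.36 and 2.51 (hy5 Control) and 2.25 and 1.98 (hy5 BA) and an averaged hy5 effect of -0.89 ± 0.12 (adjusted p = 1.90e-05). SMR4 was higher in hy5, at 0.39 ± 0.09 (adjusted p = 0.00221). DEL2, an atypical E2F, was higher in hy5 with CPM values of 2.54 and 2.85 (WT Control), 2.80 and 2.91 (WT BA), 4.50 and 5.06 (hy5 Control) and 4.28 and 4.76 (hy5 BA), all hy5 libraries above all WT libraries and an averaged effect of 0.74 ± 0.11 (adjusted p = 3.67e-05). CDC20.1, an activator of the anaphase-promoting complex in mitosis, was higher by 0.32 ± 0.05 (adjusted p = 0.000222), and CCS52B by 0.21 ± 0.05 (adjusted p = 0.00505). These 6 averaged hy5 effects were called in all 15 alternatives. The other genes called higher were CDC20.2, SMR7 and OSD1, of which CDC20.2 kept its call in 7, SMR7 in 4 and OSD1 in 14 of the 15. Library size only and DESeq2 were among the alternatives that ended the calls of CDC20.2 and SMR7, and the replicate block also ended that of SMR7. With BA the hy5 effect was 0.48 ± 0.08 for CDC20.1 (adjusted p = 0.000253), 0.49 ± 0.10 for CDC20.2 (0.00201) and 0.32 ± 0.07 for CCS52B (0.00480). No gene of the mitosis and cytokinesis list was called in control medium, where the highest fold was 0.16. None was called for the genotype by BA interaction. No gene of the replication list and none of the CDK activation list was called for the averaged hy5 effect. TSO2, of the replication list, was called lower in hy5 in control medium, at -0.34 ± 0.09 (adjusted p = 0.0106), but not with BA. Its BA response was called in hy5, at 0.41 ± 0.09 (adjusted p = 0.00597), but not in WT. No gene of that list was called for the genotype by BA interaction.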

How the data were processed

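Polyadenylated RNA of 8 root libraries, 2 per group, was sequenced after CTAB extraction, oligo-dT selection, heat fragmentation and random priming, per the labels' protocols. The authors deposited 1 Salmon table per library on TAIR10, per the submitters' processing notes, with transcript length, effective length, TPM and estimated counts. No version and no strand setting is named in the sources used here. The deposited TPM was used only for levels between genes, since transcripts with an effective length under 50 bases held 11.7 to 18.4% of it per library. The deposited effective length entered 1 alternative.

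Estimated counts were summed over transcripts by locus code and rounded. Genes under a minimum count of 10 were removed with filterByExpr, which left 22682 of 27628. TMM scaling and 1 robust quasi-likelihood fit with 4 group means (edgeR 4.0.16, R 4.3.3) gave two-sided p-values, adjusted by the Benjamini-Hochberg method. CPM are scaled by TMM, and the standard error is the log2 fold divided by the root of F. Depth was 29928501 to 35289411 estimated counts, with a common biological coefficient of variation of 0.0596. Replicates differed by more than sampling noise, with a chi-square per gene of 3.9 to 7.94, so none was counted as a copy. The fit was tested on simulated data made from these libraries, where 65.7% of 67 genes changed 1.5-fold were recovered for BA in WT and 59.7% for hy5 against WT on control medium. Few genes were changed there, in 1 group at a time, with the spread taken from the main fit. Far more genes were called in the real contrasts, so these shares need not hold for them. Alternatives were another normalization (RLE, or library size only), no filter, DESeq2 1.42.0, a replicate block, length-scaled counts, each library left out, and hy5 Control 1 and hy5 BA 2 left out together.

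Gene names and coordinates came from the RefSeq annotation of TAIR10.1, whose transcript lengths equalled the deposited ones for 99.6% of 48123 transcripts. Values per library are given for the members called in at least 1 contrast, and in each class for the member with the highest TPM and the one with the smallest p for the averaged hy5 effect. CYCB1;1, CYCD3;3, CDKB1;1 and SIM were added after their values were seen. The members and all lists, markers included, were chosen with earlier results of these data known. Of the 39 members, 12 overlap another annotated gene, and 29 had summed counts within 0.01 of a whole number in every library.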

Additional observations from a re-analysis of the deposited data

How the results depend on the processing

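Of 28 named folds under 15 alternatives each, 333 values kept their side of the threshold, 86 fell below it, 1 passed it and none changed direction. A total of 11 members called for the averaged hy5 effect became 8 to 11 in every alternative. Counts of members called moved by more than 1.5 times as follows. With library size only, BA in hy5 gave 2 calls instead of 1, the hy5 effect with BA 5 instead of 3, and BA averaged 7 instead of 4. Over all 22682 genes that scaling gave 1712 higher and 1285 lower for BA in hy5 instead of 706 and 1817. For the hy5 effect with BA it gave 2760 and 2589 instead of 2505 and 2816. For BA averaged it gave 2219 and 1896 instead of 1465 and 2263. DESeq2 gave 1 for BA averaged, where 874 of 20907 genes were higher and 1981 lower. Calls over all genes also differed between the runs below with libraries left out. Without hy5 Control 1 and hy5 BA 2 together, fewer genes were called over all genes too, in each contrast given for that run. Runs with the fewest member calls for the hy5 effect in control medium, with BA and for BA averaged likewise called fewer of all genes. The losses are thus not particular to the members. Without hy5 Control 1 and hy5 BA 2 together, BA in hy5 gave 0, the hy5 effect in control medium 3 instead of 6 and BA averaged 1. Leaving out 1 library each gave 0 to 3 calls for BA in WT, 0 to 1 for BA in hy5, 2 to 7 for the hy5 effect in control medium, 1 to 4 with BA, 0 to 0 for the interaction, 1 to 7 for BA averaged and 8 to 11 for the averaged hy5 effect. The lowest of these came without hy5 Control 2 for the hy5 effect in control medium, without hy5 BA 1 with BA, and without hy5 Control 1 or hy5 BA 1 for BA averaged, and the highest, 3, 7 and 7, without WT Control 2. A group left with 1 library was assumed to vary like the others. The causes were not tested.

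Same-numbered libraries did not deviate together (correlations of -0.068 to 0.024 over genes), so the main fit paired none. Correlations of this kind cannot show whether same-numbered libraries were grown or prepared together. The fit with a replicate block gave 0, 1, 5, 3, 0, 4 and 11 calls for BA in WT, BA in hy5, genotype in control medium, genotype with BA, the interaction, BA averaged and the averaged hy5 effect. Over all 22682 genes, in the same order, that fit called 767, 600, 2917, 2358, 10, 1249 and 3831 higher. It called 868, 1681, 2383, 2610, 91, 2097 and 3641 lower. With 2 libraries a group, folds of low genes such as CYCA2;1 and CYCD4;2 are bounded loosely, and averaged contrasts carry most calls.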
